A study of Mus musculus with 12 samples.

Results

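PKO-1 is a line of mouse embryonic fibroblasts (MEFs) without PNPase, and its gene expression was compared with that of TM6, the line it was made from. TM6 MEFs were immortalized with SV40 large T-antigen, are C57BL6/J cells of genotype *Pnpt1* neo-flox/neo-flox, and carry loxP sites around exon 2 of both alleles of *Pnpt1*. PKO-1 descends from 1 TM6 cell that had been exposed to a Cre adenovirus and is therefore 1 clone. The study reported no mtDNA signal and no mitochondrial respiration in PKO-1, in contrast to TM6. A difference between the lines can belong to the knockout, to the loss of mtDNA, to the virus or to the founding cell. These cannot be told apart. TM6 received no virus. Both lines were kept in medium with 50 µg/mL uridine and were harvested before confluence. The comparison rested on the 6 libraries whose labels name TM6 (3 biological replicates) or clone 1 of the Cre-treated MEFs (3 biological replicates), out of 12 in the series. The remaining 6 libraries, 3 of a second knockout clone (PKO-6, made in the same way) and 3 of rho0 MEFs (TM6 cells treated with 750 ng/mL ditercalinium for 3 weeks to remove mtDNA), entered the fit and are mentioned beside PKO-1 in some places.

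PNPase (polynucleotide phosphorylase) is an exoribonuclease of the mitochondrion that degrades RNA from its end and has been linked to the import of small RNAs into that organelle. Mitochondrial DNA encodes subunits of the respiratory chain, whereas the other subunits and the enzymes that copy mtDNA come from the nucleus. Cells that cannot respire stop making pyrimidines, because dihydroorotate dehydrogenase passes its electrons to the respiratory chain, and they depend on uridine in the medium. Fibroblasts produce and remodel the collagen matrix and keep a memory of their place in the body in the Hox genes they express.

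Between 47164860 and 66533418 counts were available per library, of which 13.2% to 17.1% belonged to *Rn45s*, the rRNA precursor that depletion had not removed. Within TM6 and within PKO-1, libraries correlated at 0.9939 or above, and PKO-1 libraries correlated with TM6 libraries at 0.9401 or below (Pearson's r over genes on a log scale, a description, since genes are not replicates). The counts contained 0 entries of the mtDNA, so mitochondrial transcripts were not analysed here. Values below are normalized counts, which are counts divided by the scaled size of each library, and they compare one gene between libraries but not one gene with another. A gene was called (a DEG) when its adjusted p in edgeR's quasi-likelihood test was below 0.01 and its absolute log2 fold change was above 0.5. A lower value in RNA from whole cultures can mean fewer expressing cells or less RNA per cell, which cannot be told apart.

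The targeted gene was measured first. *Pnpt1* lies on chromosome 11 of GRCm38 (29130751 to 29161828, plus strand, 28 exons in 1 listed transcript). It had 2832, 3242 and 3319 normalized counts in the TM6 libraries and 1254, 1191 and 1276 in PKO-1, and the highest PKO-1 library lay below the lowest TM6 library (log2 fold change -1.34, SE 0.0863, adjusted p = 1.25e-08). Cre removes exon 2 alone, while reads of all 28 exons were counted, so what remained does not measure functional message. PKO-1 also lay below PKO-6, which had 1897, 1720.4 and 2214 (log2 fold change -0.65, SE 0.0864, adjusted p = 1.92e-05). Of 23 genes for mitochondrial RNA turnover and processing, 9 rose and 3 fell (median log2 fold change 0.058, here and below with genes at 3 counts or fewer in a line set to the bound that 3 counts allow). Over all 14026 tested genes, 16.4% rose and 17.9% fell. *Tfb1m*, an rRNA methyltransferase, and its relative *Tfb2m* were among the members that rose: *Tfb1m* had 283, 286 and 314 in TM6 and 571, 609 and 511 in PKO-1 (log2 fold change 0.94, SE 0.085), and *Tfb2m* rose by 0.62 on the log2 scale. *Slirp*, which stabilizes mitochondrial mRNA, also rose (log2 fold change 0.80, SE 0.0927), whereas *Fastkd3*, another RNA-binding factor of the organelle, fell (log2 fold change -0.84, SE 0.0772). *Supv3l1*, the helicase that works with PNPase, was not called and had means of 2381 and 2456. With the median of each chromosome subtracted, 5 of these 12 calls were kept, *Tfb2m* and *Slirp* were among those lost, and 1 further member was called. Here and below, this subtraction changed the fold changes alone, and the adjusted p stayed as tested without it.

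Among the RNAs that PNPase has been proposed to import, *Rpph1*, the RNA of nuclear RNase P, rose from 189768, 185623 and 180153 to 260605, 313106 and 262739 (log2 fold change 0.59, SE 0.0993, adjusted p = 0.000137), and it stood below the 424004 of PKO-6. *Rmrp*, the RNA of RNase MRP, was not called, with 277769, 290419 and 262671 in TM6 and 304191, 394274 and 302206 in PKO-1. Of the 12 stable noncoding RNAs in the table, the other one called was *Snhg1*, a host gene of small nucleolar RNAs (log2 fold change 0.57, SE 0.0576). Of 18 subunits and helpers of the RNA exosome, the degradation machinery of the cytosol and nucleus, *Exosc5* was called (log2 fold change 0.68, SE 0.13), and without TM6 replicate 2 a second member passed.

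In all, 4810 of 14026 tested genes were called in PKO-1 against TM6 (34.3%), 2294 higher and 2516 lower. The groups of 3 libraries did not overlap for 10064 genes (71.8%), a share that includes many changes too small to be called, and 4801 of the 4810 called genes were among them. Where a lack of overlap is stated below for called genes, it therefore adds little to the call. The median absolute log2 fold change over all tested genes was 0.39. A log2 fold change below -2 was found for 724 called genes and one above 2 for 327 (682 and 301 with genes at 3 counts or fewer set to their bound). In 276 called genes (1.97% of those tested) every PKO-1 library had 3 counts or fewer. Every PKO-1 library had 0 counts for 108 called genes, 24 of which averaged at least 100 normalized counts in TM6. TM6 was at 3 counts or fewer in 66 called genes (0.471%). The reverse, 0 counts in every TM6 library, was seen for 14 called genes, of which *Ostn* alone averaged at least 100 in PKO-1.

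**Figure D1:**
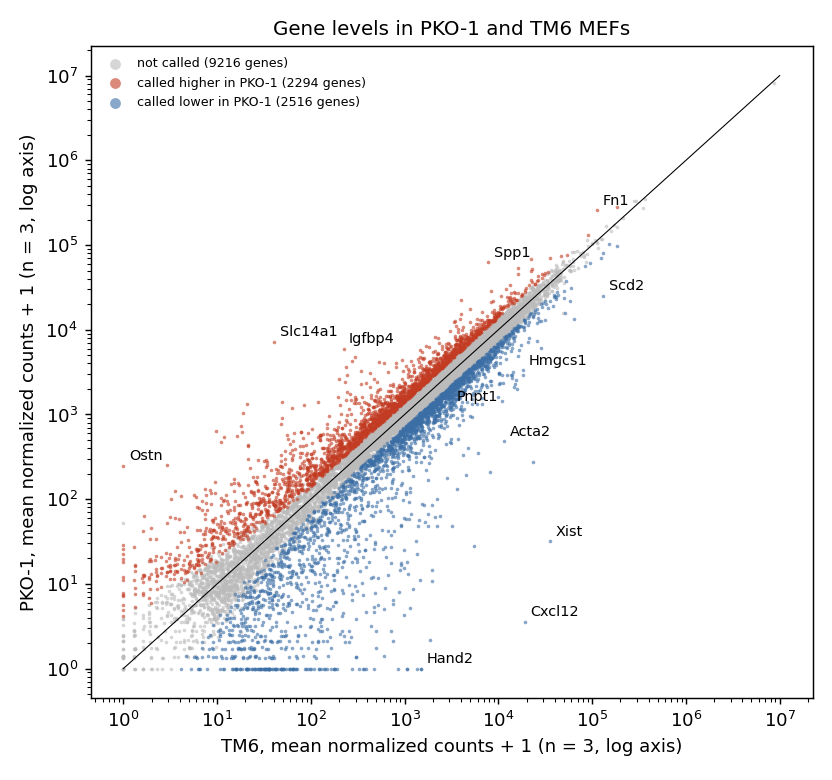
Mean normalized counts plus 1 of each tested gene in TM6 (horizontal, log axis, n = 3) and PKO-1 (vertical, log axis, n = 3), with genes called higher in red, called lower in blue and not called in grey. The blue genes reach the bottom edge, where PKO-1 had 0 counts, over a wide range of TM6 levels, while few red genes lie at the left edge.

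Among called genes whose 6 libraries averaged 100 normalized counts or more and whose groups did not overlap, the 10 with the largest falls included regulators of limb and body pattern, a chemokine and a protease. *Hand2*, a transcription factor of limb and heart mesenchyme, gave 1526, 1534 and 1407 normalized counts in the TM6 libraries and none in PKO-1, at least 453-fold lower when 3 counts per library are taken as the floor. *Mmp2*, the gelatinase that cuts denatured collagen, went from 1574, 1479.8 and 1404 to 0 in all 3 libraries (at least 452-fold lower). *Hoxd13*, a homeobox gene of the distal limb, had 1238, 1427 and 1410.0 against 0 (at least 413-fold lower). These genes were not detected in PKO-1 libraries of at least 47164860 counts, and a lower level would not be seen at this depth. *Alx4*, a homeobox gene of limb and skull, had 1126, 1036 and 1030.1 in TM6 and 0 in each PKO-1 library (at least 323-fold lower). *Bicc1*, an RNA-binding protein, had 1066, 1092 and 1028 against 0 (at least 323-fold lower). *Cxcl12*, the chemokine that binds CXCR4, had 19484, 18748 and 18919 in TM6 and 3.57, 2.13 and 2.07 in PKO-1, and no fold is given because PKO-1 held 3 counts or fewer but not 0. *Slc5a7*, the choline transporter, had 756, 894 and 882 against 0 (at least 257-fold lower), and *Zfp518b*, a zinc finger gene, 473, 469 and 456 against 0 (at least 142-fold lower). *Ednrb*, the endothelin B receptor, had 404, 389.8 and 363 against 0 (at least 117-fold lower), and *Hoxd11*, a neighbor of *Hoxd13* in its cluster, 406, 313 and 376 against 0 (at least 111-fold lower). In 9 of these 10 genes no read was counted in any PKO-1 library. *Hand2*, *Mmp2* and *Hoxd13* also had means of 0 in both PKO-6 and rho0. Means in PKO-6 and rho0, in this order, were 0.273 and 0 for *Hoxd11*, 0.273 and 0.372 for *Ednrb*, and 3.62 and 4.35 for *Slc5a7*. They were 1.26 and 24.7 for *Alx4*, 0 and 31.9 for *Zfp518b*, 18.9 and 42.8 for *Bicc1*, and 7.13 and 152 for *Cxcl12*. These losses were thus not particular to PKO-1.

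By the same rule, the 10 largest rises were spread over genes of nerve, bone, kidney and germ cells. *Ostn*, the secreted peptide osteocrin, had 0 in every TM6 library and 264, 256 and 222 in PKO-1 (at least 87.8-fold higher). *Slc14a1*, a urea transporter, rose from 34.6, 53.5 and 30.9 to 7134, 7015 and 7459 (log2 fold change 7.5, SE 0.19, adjusted p = 1.38e-12). *Alpl*, tissue-nonspecific alkaline phosphatase, had 0.865, 3.82 and 0.997 in TM6 and 261, 277 and 218 in PKO-1. *Slitrk5* and *Nrcam*, cell surface proteins of neurons, rose by 6.17 and 5.87 on the log2 scale, from means of 8.72 and 17.7 to 639 and 1034. *P2rx3*, an ATP-gated channel of sensory neurons, went from 16.4, 28.7 and 15 to 1377, 1336 and 1305 (log2 fold change 6.06, SE 0.13). *Pkhd1l1*, a large membrane protein related to fibrocystin, rose by 5.59, *Rhox5*, an X-linked homeobox gene of the germ line, by 5.56, and *1700012B09Rik*, a gene without an assigned role here, by 5.39. *Car8*, a carbonic anhydrase relative without enzyme activity, had 14.7, 10.5 and 20.9 in TM6 and 570.2, 530.4 and 577 in PKO-1 (log2 fold change 5.18, SE 0.18). As the rule required, the lowest PKO-1 library was above the highest TM6 library in each of these genes. Means in PKO-6 and rho0, in this order, were 1473 and 1062 for *Ostn* and 5132 and 3081 for *P2rx3*, above PKO-1. They were 745 and 247 for *Nrcam*, 302 and 39.8 for *Car8*, 155 and 137 for *1700012B09Rik*, and 46.9 and 243 for *Pkhd1l1*. The lowest were 46.9 and 69.1 for *Slitrk5*, 24.1 and 162 for *Slc14a1*, 18.2 and 18.2 for *Alpl*, and 9.81 and 2.45 for *Rhox5*.

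By number of counts, the largest gain was that of *Fn1*, fibronectin, which had 112637, 118009 and 109163 in TM6 and 248198, 277799 and 251322 in PKO-1 (log2 fold change 1.19, SE 0.0662, adjusted p = 2.64e-09). *Rpph1* came next, followed by *Spp1*, the secreted phosphoprotein osteopontin, with 7409.9, 8209 and 7715 and 63174, 57861 and 65732 (log2 fold change 3.00, SE 0.0794). *Hmga2*, a chromatin protein of embryonic cells, rose from 20979, 22532 and 23874 to 69220.0, 66770.4 and 66686 (log2 fold change 1.59, SE 0.07). *Hsp90aa1*, a cytosolic chaperone, had 80187, 95557 and 98039 and 141212, 132550.3 and 121546 (log2 fold change 0.53, SE 0.0899, adjusted p = 0.000148), but its value moved to -0.028 once the median of its chromosome, 12, was subtracted, and it was not called without TM6 replicate 1 (0.41) or PKO-1 replicate 1 (0.48). The largest loss was that of *Scd2*, a fatty acid desaturase, from 130878, 135695 and 129695 to 25619, 24406 and 25391 (log2 fold change -2.39, SE 0.0734, adjusted p = 7.59e-12). *Col1a1*, the main chain of collagen I, fell from 182206 ± 16623 to 98095 ± 5599 (mean ± SD, n = 3 each, log2 fold change -0.89), and *Col5a2*, a chain of collagen V, from 63991 ± 1934 to 13345 ± 121 (log2 fold change -2.26). *Flna*, the actin cross-linker filamin A, and *Actg1*, cytoplasmic gamma actin, fell (log2 fold changes -0.82 and -0.56). *Flna* lies on the X chromosome and stood at -0.08 after the median of that chromosome was subtracted.

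Genes of the sterol pathway fell. Cholesterol is built from acetyl-CoA through mevalonate to squalene, which is then closed into a ring and trimmed, and the enzymes of the route are under the control of SREBP-2. All 9 tested genes of the mevalonate part fell (median log2 fold change -1.95) and 10 of 11 genes after squalene fell (median -2.16), against 17.9% of all genes. *Hmgcs1*, which makes HMG-CoA, stood at 17272, 19055 and 18934 normalized counts in TM6 and at 3388, 3099 and 3539 in PKO-1 (log2 fold change -2.46, SE 0.0647, adjusted p = 1.78e-12). *Fdps*, which makes farnesyl diphosphate, had 15969, 15558 and 14349.9 and 2479.6, 2263 and 2827 (log2 fold change -2.60, SE 0.13), and *Idi1*, the isomerase before it, fell too (log2 fold change -2.40). In each of these genes the highest PKO-1 library was below the lowest TM6 library. After squalene, *Nsdhl* and *Cyp51* (lanosterol demethylase) had log2 fold changes of -2.85 and -2.78, and *Sqle*, the epoxidase that opens this part of the route, fell from 13813, 14781 and 14325 to 3251, 3089 and 3247 (log2 fold change -2.16, SE 0.0678). *Tm7sf2*, a sterol reductase, was the one member not called, with means of 209 and 206.

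The promoter of *Hmgcs1* is shown because it was the only one of the 45 sterol and fatty acid gene promoters in the RefSeq table (build GRCm38.p6, 250 bases before to 50 after the start) to contain the letters TCACNCCAC, a form of the sterol regulatory element, on either strand. Capitals mark the match, which begins 137 bases before the start (chr13:119690188-119690248, plus strand).
Hmgcs1: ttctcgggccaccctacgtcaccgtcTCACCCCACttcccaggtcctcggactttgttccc
The same letters were found in 388 of 27025 promoters of the table (1.44%), and their absence from the other windows says nothing of the factor.

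Regulators of sterol supply fell with the enzymes. Of 17 tested genes for SREBP and LXR control, uptake and efflux, 11 fell and 2 rose (median -0.92). *Insig1*, which holds SREBP in the endoplasmic reticulum, fell (log2 fold change -2.21), and *Srebf2*, which encodes SREBP-2, from 25551 ± 1638 to 7309.9 ± 333 (log2 fold change -1.81, SE 0.11). *Abca1*, the efflux pump driven by LXR, fell as well (log2 fold change -2.0). The 2 members that rose were *Soat1*, which esterifies cholesterol (log2 fold change 0.72, SE 0.0447), and *Npc2*, a lysosomal cholesterol carrier (log2 fold change 0.54, SE 0.0723), whose value was -0.014 after the median of chromosome 12 was subtracted.

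Of 18 tested genes for fatty acid synthesis and desaturation, 15 fell and 1 rose (median -1.22). *Elovl6*, an elongase, and *Fads2*, a desaturase, had log2 fold changes of -1.76 and -1.73, and *Scd1* fell from 20366, 21465 and 20606 to 7277, 7087 and 7422 (log2 fold change -1.52, SE 0.0517). *Fasn*, fatty acid synthase, fell less, from 50391 ± 3127 to 23437 ± 929 (log2 fold change -1.10, SE 0.0901). *Acacb* was the member that rose, at low counts (142 to 254), and Acaca and Gpam were not called. Against PKO-6, PKO-1 was higher in 2 of the 9 mevalonate genes, and for *Scd2* it stood above the 15431 of PKO-6 (log2 fold change 0.70, SE 0.0703, adjusted p = 1.19e-06), and every library of both clones lay below every TM6 library.

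**Figure D2:**
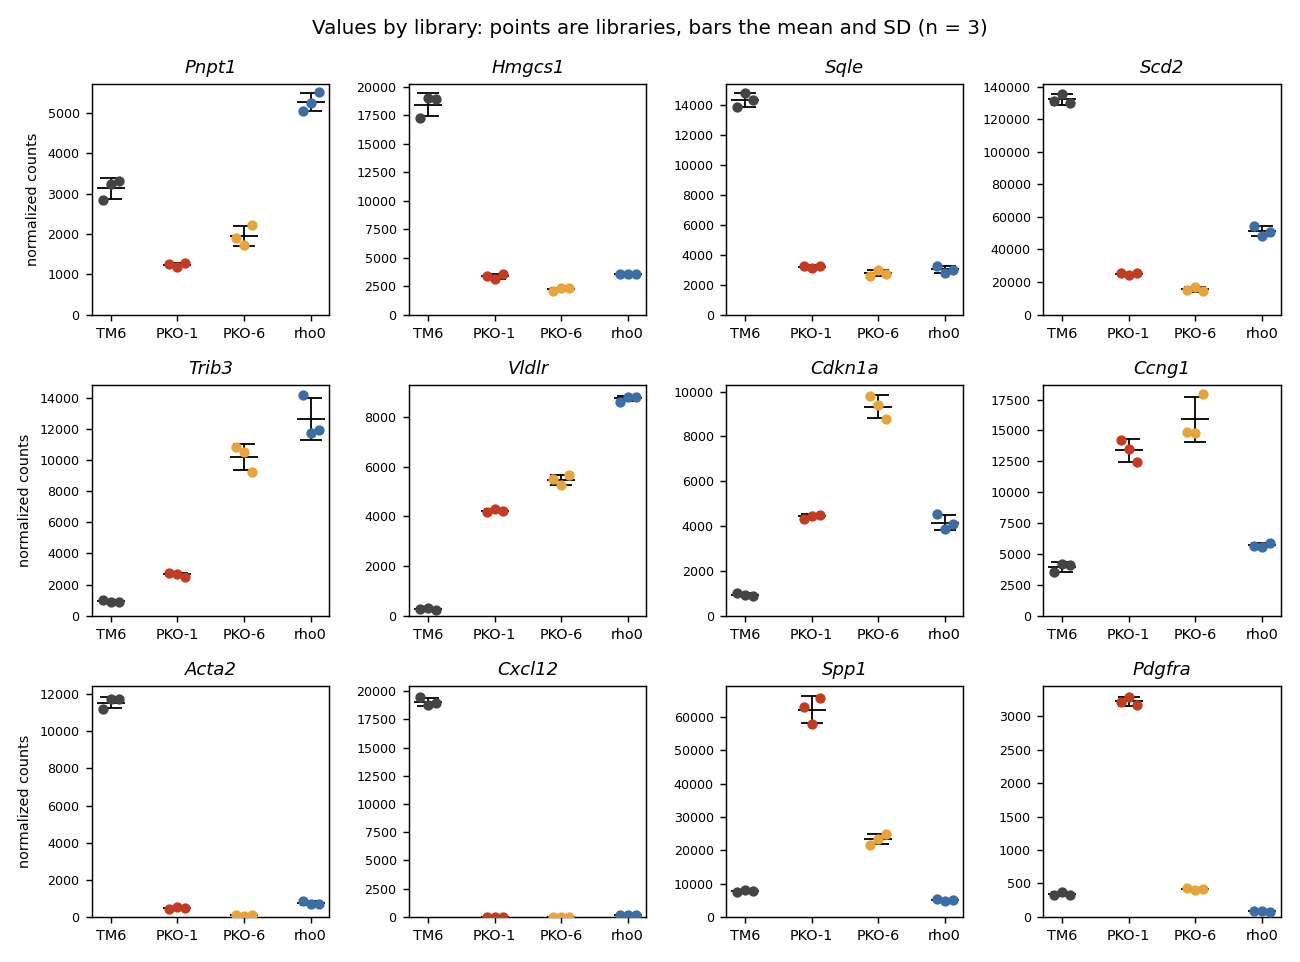
Normalized counts of 12 genes in each library of TM6, PKO-1, PKO-6 and rho0 (points), with the mean and SD of each line (bars, n = 3). *Hmgcs1*, *Sqle* and *Scd2* lie below TM6 in PKO-1, PKO-6 and rho0, *Trib3* in PKO-1 lies between TM6 and PKO-6, and *Pdgfra* is high in PKO-1 but not in PKO-6.

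The stress response to failing mitochondria runs through ATF4, a transcription factor that raises genes for amino acid synthesis and uptake and for tRNA charging when eIF2 alpha is phosphorylated. Of 19 tested stress factors and feedback genes, 8 rose and 1 fell (median 0.33), against 16.4% and 17.9% of all genes. *Vldlr*, a lipoprotein receptor of this response, rose from 282, 299 and 235 to 4183, 4297 and 4218 (log2 fold change 3.96, SE 0.0731, adjusted p = 1.65e-13). *Trib3*, a pseudokinase that restrains ATF4, had 1006, 872 and 898 and 2732, 2708 and 2509 (log2 fold change 1.52, SE 0.0885, adjusted p = 4.42e-09). *Gdf15*, the secreted mitokine, rose from 67.4, 50.6 and 66.8 to 286, 308 and 264 (log2 fold change 2.21, SE 0.11). These 3 genes were clear of the TM6 range in every PKO-1 library. On the log2 scale, *Sesn2* rose by 1.38, *Atf5* by 0.87, *Chac1*, which breaks down glutathione, by 0.71 and *Ppp1r15a*, which restores eIF2 alpha, by 0.69. *Atf4* itself was not called (means of 15274 in TM6 and 16199.7 in PKO-1), and neither was *Ddit3*, which encodes CHOP (means of 1016 and 1113). *Nupr1* fell, from 1213, 1256 and 1259 to 765, 808 and 809.8 (log2 fold change -0.64, SE 0.0679).

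PKO-1 lay below PKO-6 in 12 of these 19 genes by the direct test between the clones, which called 17.6% of all genes lower in PKO-1 and 11.5% higher. *Trib3* stood at 10866, 10497 and 9261 in PKO-6, above every PKO-1 library (log2 fold change -1.95, SE 0.0859, adjusted p = 3.34e-10), and *Chac1* at 6815, 6737 and 5737 (log2 fold change -1.88, SE 0.0887, adjusted p = 6.38e-10). *Vldlr* was not called between the clones (log2 fold change -0.37, SE 0.0606, adjusted p = 0.000121).

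Promoter windows are shown for 5 called genes of the ATF4 lists because they contain TGATGNAA, the letters of the C/EBP-ATF response element, on either strand before the start. Capitals mark the match in the gene's own direction, and *Slc7a11* contains 2. The positions are chr2:119351023-119351082 for *Chac1*, chr7:126625547-126625606 for *Nupr1*, chr19:27216794-27216853 for *Vldlr*, chr19:43524674-43524733 for *Got1* and chr3:50443627-50443705 for *Slc7a11* (RefSeq, GRCm38.p6). *Nupr1*, *Got1* and *Slc7a11* are on the minus strand.
Vldlr: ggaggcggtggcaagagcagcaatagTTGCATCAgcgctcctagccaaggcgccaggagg
Chac1: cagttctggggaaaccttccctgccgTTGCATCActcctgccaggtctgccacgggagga
Slc7a11: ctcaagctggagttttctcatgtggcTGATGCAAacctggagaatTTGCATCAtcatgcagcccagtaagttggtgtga
Got1: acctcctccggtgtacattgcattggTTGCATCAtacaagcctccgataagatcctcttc
Nupr1: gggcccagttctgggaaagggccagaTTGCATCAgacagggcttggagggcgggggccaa
The same 8 letters lay in 1219 of 27025 promoters (4.51%), in 6 of 18 promoters of the stress factor list, in 3 of 13 each of the asparagine list and the transporter list, in 5 of 12 of the cytosolic tRNA synthetases and in 0 of 13 of the serine list. Many list genes with a match were not called: *Atf3*, *Fgf21*, *Asns*, *Pycr1*, *Slc7a7* and all 5 of the synthetases, *Aars*, *Gars*, *Iars*, *Tars* and *Yars*. *Nupr1*, with a match, fell. *Trib3* and *Slc1a4* were called too, but their match lay only after the start, so their windows are not shown. Whether a match and a change went together was not tested. A match in the window is a description and not a measured binding site.

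The amino acid genes moved unevenly. Of 17 tested enzymes of asparagine, proline and sulfur amino acid metabolism, 7 rose and 3 fell (median 0.37). These were 41.2% and 17.6%, against 16.4% and 17.9% of all genes. *Cth*, which makes cysteine, rose from 629, 683 and 678 to 3391, 3243 and 2763 (log2 fold change 2.24, SE 0.0818, adjusted p = 4.05e-11), and *Gpt2* and *Got1*, transaminases, rose by 1.19 and 1.00 on the log2 scale. *Ass1*, argininosuccinate synthase, fell from 2011, 1699.6 and 1586 to 42.9, 77.7 and 74.5 (log2 fold change -4.75, SE 0.41, adjusted p = 2.34e-07), the largest change of the list. *Asns*, asparagine synthetase, was not called and had means of 6457 and 9039. Of 15 serine and one-carbon enzymes, 3 rose and 2 fell. *Mthfd2* and *Aldh1l2*, mitochondrial folate enzymes, went from means of 6725 and 6895 in TM6 to 11019 and 11301 in PKO-1 (log2 fold changes 0.71 and 0.71), and both were higher in PKO-6, at 17012 and 28076. *Mthfd1*, the cytosolic relative, rose by 0.53 on the log2 scale and was not called without TM6 replicate 1 (0.49). With chromosome medians subtracted, *Mthfd1* and *Mthfd2* were not called. The folate enzyme *Aldh1l1* had 96.8, 65.9 and 54.8 in TM6 and 1.19, 2.13 and 1.03 in PKO-1, and *Gldc*, which splits glycine, fell from 45.8, 40.1 and 37.9 to 7.14, 5.33 and 8.27 (log2 fold change -2.56, SE 0.34). *Phgdh*, the first serine enzyme, was not called (means of 19345 and 16023).

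Among 16 plasma membrane amino acid transporters, 6 rose and 2 fell. *Slc7a3*, a cationic amino acid transporter, had 61.4, 39.2 and 42.9 in TM6 and 900.0, 906 and 917 in PKO-1 (log2 fold change 4.23, SE 0.15, adjusted p = 4.03e-11), and it exceeded the 302 of PKO-6. *Slc7a11*, the cystine carrier, rose from 1980.0, 2345 and 2241 to 5419, 5164 and 4795 (log2 fold change 1.23, SE 0.0668), and *Slc1a3*, a glutamate carrier, fell from 1753, 1816 and 1873 to 263, 273 and 273 (log2 fold change -2.75, SE 0.11). Of 20 cytosolic tRNA synthetases, 5 rose, led by *Wars* (log2 fold change 0.85, SE 0.0668), *Lars* (log2 fold change 0.69, SE 0.0548) and *Dars* (log2 fold change 0.64, SE 0.0633). None of these 5 calls was left after chromosome medians were subtracted, and the direct test placed PKO-1 below PKO-6 in 12 of the 20, against 17.6% of all genes. Of 17 mitochondrial tRNA synthetases, 6 rose (35.3%). *Lars2* rose the most (log2 fold change 1.98, SE 0.35, from 2781, 3722 and 5344 to 12249, 8319 and 25961), with a wide spread among the PKO-1 libraries, and its annotated sequence includes a stretch that resembles ribosomal RNA, so its counts are uncertain. *Nars2* rose by 0.80 on the log2 scale.

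Chaperone lists of the endoplasmic reticulum and of mitochondria leaned in different directions, but few of their calls were left with chromosome medians subtracted. Of 21 genes of the endoplasmic reticulum unfolded protein response, 7 fell and 2 rose (33.3% and 9.52%, against 17.9% and 16.4% of all genes). *Hspa5*, the chaperone BiP, went from 37368, 40909 and 40557 to 24784, 23931 and 23338 (log2 fold change -0.72, SE 0.0608), and *Xbp1*, a transcription factor of the response, fell (log2 fold change -0.97), whereas *Atf6*, another, and the cochaperone *Dnajb9* rose by 0.99 and 1.00 on the log2 scale. Of these 9 calls, 3 were left once chromosome medians were subtracted, and *Dnajb9* was among those lost. Of 17 mitochondrial proteases and chaperones, 4 rose (23.5%, against 16.4% of all genes) and none fell. *Hspa9*, the chaperone mortalin, rose from 43027, 47470.4 and 47576 to 78638, 76266 and 69901 (log2 fold change 0.70, SE 0.0703). On the log2 scale *Trap1* rose by 0.69, *Dnaja3* by 0.68 and the protease *Lonp1* by 0.54. *Hspa9* and *Lonp1* were not called with chromosome medians subtracted, and both were higher in PKO-6, at 113298 and 27506. That subtraction left 2 of the 17 called higher, where 13.2% of all genes were called higher.

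Nuclear genes of the respiratory chain were called in smaller shares than the 34.3% of all genes. Of 37 complex I subunits, 1 rose and 2 fell (median 0.048), and of 41 subunits of complexes II to V, 3 rose and 5 fell (median -0.039). With each library left out, the median lay between 0.0 and 0.103 for complex I and between -0.087 and 0.004 for complexes II to V, in both cases lowest without PKO-1 replicate 2 and highest without PKO-1 replicate 3, and both also moved by over 1.5 times without TM6 replicate 3. *Ndufb11* (log2 fold change -0.95) and *Cox7b* (-0.87), both X-linked, led the falls, and both lost their call when chromosome medians were subtracted. *Ndufa8* (-0.55) and *Ndufa7* (0.54) lost their calls in the same way, and *Ndufa7* also without TM6 replicate 3 (0.475) or PKO-1 replicate 2 (0.472). *Uqcrfs1*, the Rieske protein of complex III, fell from 4047, 4279 and 4041 to 2392, 2341 and 2336 (log2 fold change -0.81, SE 0.0826), and *Cycs*, cytochrome c, rose from 6327, 7994 and 8271 to 13693, 13366 and 11988 (log2 fold change 0.79, SE 0.0928). *Cox6a2*, the heart and muscle form of a complex IV subunit, had 2.59, 0.955 and 2.99 in TM6, 41.7, 80.9 and 61.0 in PKO-1 and 1066, 991 and 853 in PKO-6. For complex I, the number called was 5 in place of 3 without TM6 replicate 1 or without PKO-1 replicate 3. Of 20 TCA cycle genes, 3 rose and 2 fell: *Suclg2*, of succinyl-CoA synthetase, rose by 0.98 on the log2 scale, and the X-linked genes *Pdha1*, a subunit of pyruvate dehydrogenase, and *Idh3g*, of isocitrate dehydrogenase, fell (log2 fold changes -1.0 and -0.75). With chromosome medians subtracted, none of the 3 calls in complex I, 3 of 8 in complexes II to V and 1 of 5 in the cycle were left.

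Glycolysis genes were called at shares near those of all genes. Of 27 tested, 4 rose and 4 fell (14.8% each, against 16.4% and 17.9%), with a median of 0.11, or 0.074 without TM6 replicate 1. *Hk2*, hexokinase 2, rose from 3825, 3849 and 3949.7 to 8551, 9011 and 7911 (log2 fold change 1.13, SE 0.0549, adjusted p = 6.81e-10), while *Pdk4* and *Pdk3*, which switch off pyruvate dehydrogenase, fell (log2 fold changes -1.86 and -0.91), and *Pdk1* of the same family rose (0.64). *Pdk3*, which is X-linked, was not called with chromosome medians subtracted. *Ldha*, lactate dehydrogenase, was not called (means of 40327 and 50947), nor was *Slc2a1*, the glucose transporter (means of 7824 and 8463). The M1 form made up an estimated 8.68%, 8.41% and 8.70% of the transcripts of *Pkm*, the pyruvate kinase gene, in TM6 and 7.15%, 6.99% and 7.31% in PKO-1. The groups did not overlap, but an exact two-sided permutation test of 3 against 3 libraries cannot go below p = 0.1, the value found. In the hypoxia inducible factor pathway, 6 of 17 genes rose and 4 fell, with *Egln3*, an oxygen sensor, at 511, 581 and 519 and 1420.2, 1462 and 1310.3 (log2 fold change 1.38, SE 0.0823), and with log2 fold changes of 1.34 for *Car9*, a carbonic anhydrase of hypoxic cells, 1.33 for *Ero1l* and -1.08 for *Adm*. Of 23 antioxidant genes, 7 fell and 1 rose: *Sod3*, the secreted superoxide dismutase, went from 778, 744 and 674 to 94.0, 99.0 and 114 (log2 fold change -2.84, SE 0.20), *Hmox1*, heme oxygenase, fell (log2 fold change -1.34), and *Nqo1*, a quinone reductase driven by NRF2, rose from 1048, 1019 and 1048 to 3778, 3415 and 4098 (log2 fold change 1.86, SE 0.097).

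Nuclear genes that maintain mtDNA and supply pyrimidines rose at shares near that of all genes, 16.4%. Of 26 mtDNA maintenance genes, 4 rose (15.4%) and none fell: *Primpol*, a repriming polymerase, from 481, 485 and 534 to 836, 813 and 896 (log2 fold change 0.76, SE 0.0821), and on the log2 scale *Rnaseh1*, which removes RNA primers, by 0.70, *Ssbp1*, the single-strand binding protein, by 0.60 and *Mpv17* by 0.52. *Rnaseh1*, *Ssbp1* and *Mpv17* were not called with chromosome medians subtracted. *Polg* and *Tfam*, the mtDNA polymerase and packaging factor, were not called (2957 and 2269 for *Polg*, 3166 and 3621 for *Tfam*). Of 18 genes of pyrimidine synthesis and uridine salvage, 3 rose and 3 fell (16.7% each). *Uckl1*, a uridine kinase homolog, rose by 1.08 on the log2 scale, and *Uprt* and *Uck1*, also of the salvage route, fell (log2 fold changes -1.17 and -0.94). Of these 6 calls 3 were left with chromosome medians subtracted, and *Uprt*, which is X-linked, was lost. *Dhodh*, dihydroorotate dehydrogenase, was not called, with 779.9, 739 and 729.9 in TM6 and 1014, 988 and 898 in PKO-1.

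**Figure D3:**
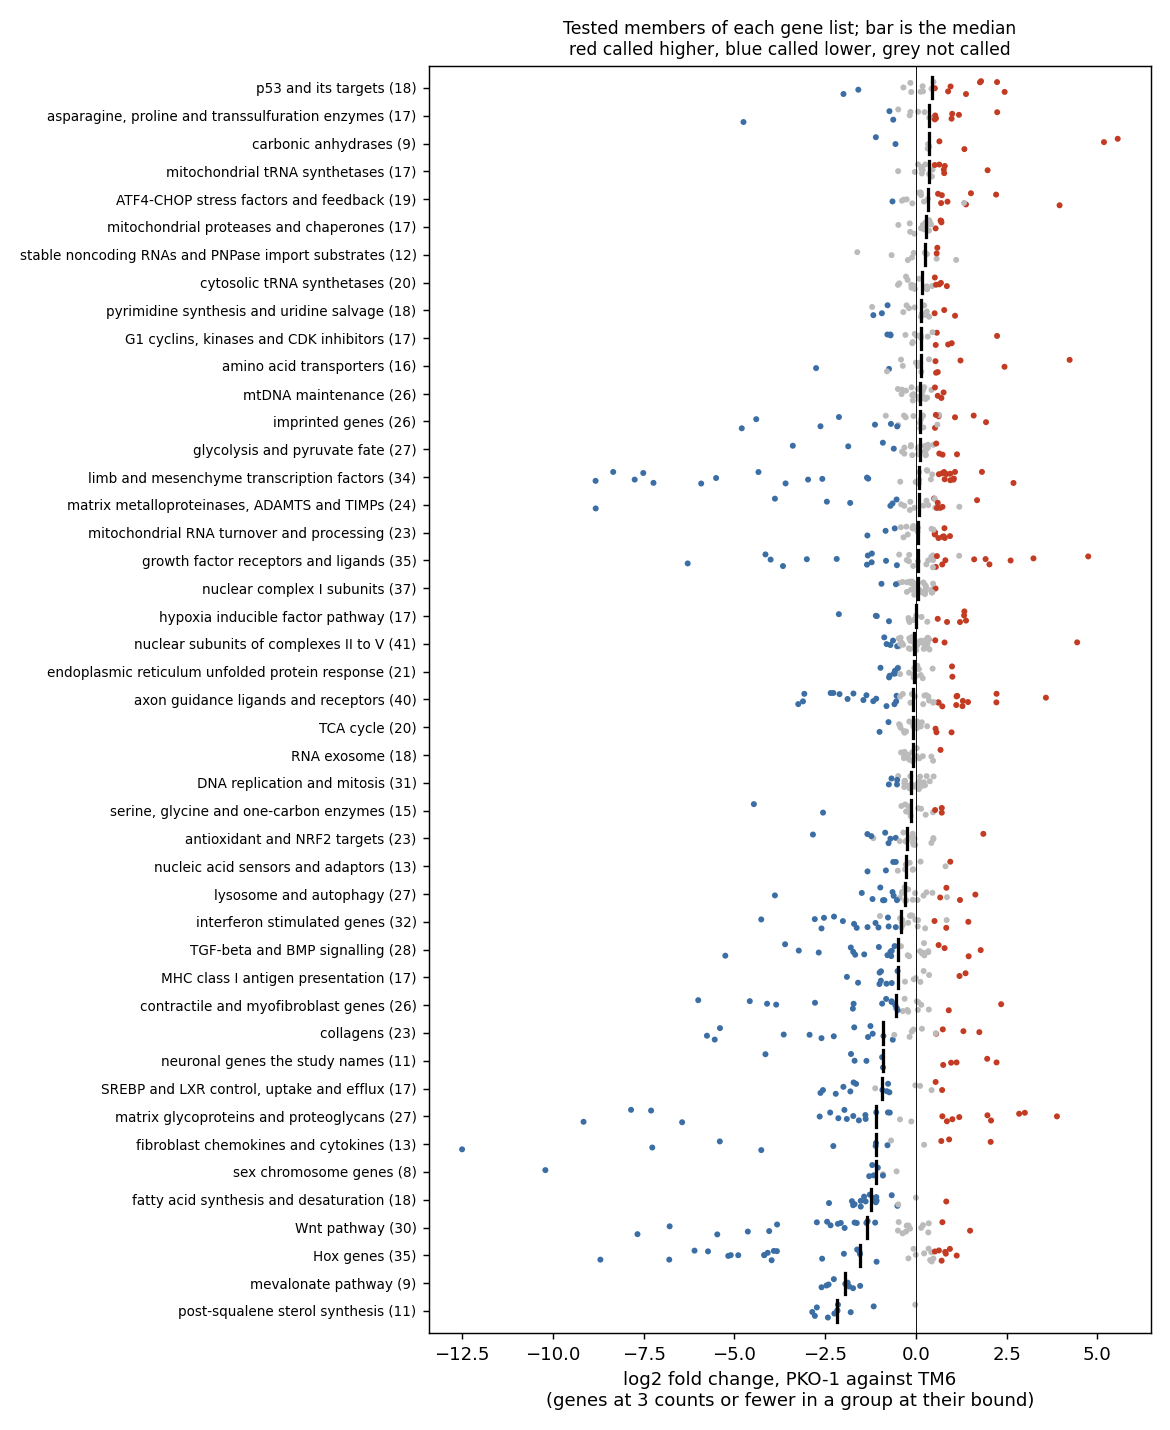
Log2 fold change of PKO-1 against TM6 for each tested member of 45 gene lists (points, red called higher, blue called lower, grey not called) with the median of each list (bar) and the number of tested members in brackets. Both sterol lists lie entirely or almost entirely below 0 at the bottom, the respiratory chain lists cluster at 0, and Hox, Wnt and matrix lists spread over more than 5 log2 units.

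Targets of p53 were among the genes that rose, and genes of DNA replication were called in a smaller share than all genes. The T-antigen that both lines carry binds p53 and RB. Of 18 tested p53 genes, 8 rose and 2 fell (median 0.46). *Cdkn1a*, the CDK inhibitor p21, rose from 1019, 909 and 893 to 4333, 4468 and 4493 (log2 fold change 2.24, SE 0.0723, adjusted p = 1.29e-11). *Trp53inp1* had 261, 294 and 321 and 1603, 1595 and 1563 (log2 fold change 2.44, SE 0.12, adjusted p = 5.69e-10), and *Ccng1*, cyclin G1, had 3501, 4223 and 4092 and 14216, 13524 and 12407 (log2 fold change 1.76, SE 0.0885). Every PKO-1 library was above the TM6 range in these genes. *Pmaip1*, which encodes Noxa, rose by 1.79 and *Zmat3* by 0.95 on the log2 scale. *Perp* and *Fas*, both tied to cell death, fell, *Perp* from 3249, 3832 and 3765 to 920.2, 945 and 856 and *Fas* from means of 97.2 to 32.2 (log2 fold changes -1.99 and -1.59). *Trp53* itself was not called (means of 8651 and 7911). The direct test placed PKO-1 below PKO-6 in 11 of the 18, against 17.6% of all genes, among them *Cdkn1a* (log2 fold change -1.07, SE 0.0676, adjusted p = 1.15e-08). Among 17 G1 genes 5 rose and 3 fell (29.4% and 17.6%, against 16.4% and 17.9% of all genes), and the cyclins *Ccnd1* and *Ccnd2* rose by 0.89 and 0.99 on the log2 scale. Of 31 replication and mitosis genes 4 fell (12.9%, against 17.9% of all genes) and none rose, among them *Mcm5* (log2 fold change -0.75, SE 0.0706) and *Pola1* (log2 fold change -0.67, SE 0.0632), an X-linked gene whose value was 0.067 with chromosome medians subtracted. *Gins1*, of the replicative helicase, fell (log2 fold change -0.52) but was not called without TM6 replicate 2 (-0.497) or PKO-1 replicate 3 (-0.477). *Mki67*, the proliferation marker, was not called, with means of 36365 and 39398. In 15 of the 31 genes PKO-1 was higher than PKO-6, against a background of 11.5%.

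Innate immune genes lay mostly below TM6. Of 32 tested interferon stimulated genes, 14 fell and 3 rose (median -0.42, -0.51 to -0.40 with each library left out). *Isg15*, a ubiquitin-like modifier, had 265, 246 and 218 in TM6 and 45.2, 51.1 and 55.8 in PKO-1 (log2 fold change -2.26, SE 0.15, adjusted p = 1.56e-08). *Parp14* fell from 280.1, 267 and 237 to 63.1, 69.2 and 62.1 (log2 fold change -2.01, SE 0.13) and *Cxcl10* from 693, 802 and 749 to 250, 253 and 186 (log2 fold change -1.70, SE 0.12). Groups of libraries did not overlap for these genes. *Rsad2*, the antiviral protein viperin, had 20.8, 18.2 and 20.9 in TM6 and 0, 0 and 1.03 in PKO-1. Of 13 sensors of foreign nucleic acid and their adaptors, 4 fell and 1 rose: *Ifih1*, which encodes MDA5, from 699, 753 and 693 to 267, 288 and 297 (log2 fold change -1.33, SE 0.0869), while *Samhd1*, a dNTP hydrolase, had a log2 fold change of -0.83 and *Tlr3*, a receptor of double-stranded RNA, one of 0.95. Of 17 genes of MHC class I presentation, 9 fell and 2 rose (median -0.50 with genes at 3 counts or fewer set to their bound, -0.67 as fitted). *H2-K1*, a classical heavy chain, had 1391, 1444 and 1336 in TM6, 771, 836 and 770.5 in PKO-1 and 9348, 9421 and 8424 in PKO-6, so the clones stood on opposite sides of the parental line (PKO-1 against PKO-6, log2 fold change -3.52, SE 0.0758, adjusted p = 4.34e-13). *Tapbp*, the chaperone tapasin, fell (log2 fold change -1.0), and *H2-M3*, a nonclassical heavy chain, and *Nlrc5*, the transactivator of this pathway, rose by 1.37 and 1.2 on the log2 scale. PKO-1 was lower than PKO-6 in 11 of the 17 genes, against 17.6% of all genes. Heavy chain genes are close copies of each other, so reads could have been split between them.

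Chemokines fell by wide margins. Of 13 tested chemokines and cytokines, 8 fell and 3 rose, while 7 more of the list had too few counts to test. Besides *Cxcl12*, *Ccl7* went from 749, 744 and 746 to 7.14, 4.26 and 3.10 (log2 fold change -7.26, SE 0.22) and *Ccl2*, which draws monocytes, from 1486, 1660.4 and 1707 to 78.6, 85.2 and 88.9 (log2 fold change -4.26, SE 0.15). *Csf1*, a macrophage growth factor, had 26824, 26237 and 27427 and 12268, 12266 and 12999 (log2 fold change -1.10, SE 0.05). *Il11* rose at low counts, 12.1, 3.82 and 6.98 to 29.8, 38.3 and 30.0.

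Genes of the extracellular matrix moved in both directions. Of 23 collagen genes 13 fell and 4 rose (median -0.89), and of 27 glycoproteins and proteoglycans 16 fell and 9 rose (median -1.09). *Col4a6*, a basement membrane chain, went from 350.2, 356 and 374 to 3.57, 8.52 and 7.24 (log2 fold change -5.75, SE 0.17), and *Col8a2* and *Col5a3* had log2 fold changes of -5.54 and -5.40. *Col6a3* and *Col18a1* rose, from 8763 ± 658 to 21705 ± 1488 (log2 fold change 1.31, SE 0.0703) and from 8427 ± 272 to 28288 ± 715 (log2 fold change 1.75, SE 0.0769). In PKO-6, *Col6a3* stood at 1056, 1150.4 and 999.6, below TM6, and the clones differed (log2 fold change 4.34, SE 0.0806, adjusted p = 1.58e-13). *Postn*, periostin, had 768, 798 and 704 in TM6 and 1.19, 2.13 and 0 in PKO-1, and *Fbn2*, fibrillin 2, 2031, 1885 and 1705 and 3.57, 0 and 0. *Thbs2*, thrombospondin 2, fell from 1238, 1282 and 1141 to 9.52, 5.33 and 8.27 (log2 fold change -7.29, SE 0.20). *Bgn*, the proteoglycan biglycan, dropped from 23058, 24287 and 23129 to 258, 274 and 279 (log2 fold change -6.44, SE 0.089, adjusted p = 9.79e-15). The related proteoglycans *Lum* and *Dcn* went the other way, from 8.65, 11.5 and 2.99 to 102, 95.9 and 151 and from 31.1, 22.9 and 21.9 to 157, 173 and 220.3 (log2 fold changes 3.88 and 2.84). PKO-1 exceeded PKO-6 in 12 of the 23 collagens and 15 of the 27 other matrix genes, against 11.5% of all genes. It was below PKO-6 in 4 of each, near the 17.6% of all genes.

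Of 24 matrix proteases and inhibitors, 6 rose and 7 fell. After *Mmp2*, falls among genes with means over 100 were led by *Ctsk*, cathepsin K, from 179, 191 and 200.4 to 15.5, 12.8 and 10.3 (log2 fold change -3.88, SE 0.24), and *Adamts2*, which trims procollagen (log2 fold change -1.81, SE 0.19). *Adamts7* rose, from 51.0, 29.6 and 30.9 to 108, 139.5 and 114 (log2 fold change 1.68, SE 0.22). Contractile genes of the myofibroblast fell in 14 of 26 cases and rose in 2 (median -0.54). *Acta2*, smooth muscle actin, had 11204, 11729.8 and 11727 in TM6 and 449, 507 and 496 in PKO-1 (log2 fold change -4.58, SE 0.11, adjusted p = 1.32e-12), *Tagln* fell from 5735, 6198 and 6219 to 362, 377 and 321 (log2 fold change -4.10, SE 0.11), and *Cnn1*, calponin, from 202, 228 and 218 to 1.19, 1.06 and 7.24. *Tpm1*, a tropomyosin, and *Vcl*, vinculin of focal adhesions, had log2 fold changes of -1.74 and -0.93. *Acta2* was higher in PKO-1 than in PKO-6 (log2 fold change 2.65, SE 0.14, adjusted p = 2.23e-09). *Srf*, the transcription factor of many of these genes, fell less (log2 fold change -0.57, SE 0.0922).

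Hox genes carry the positional identity of fibroblasts, and their numbers run from those used near the head to those used at the tail and the tip of the limb. Of 35 tested Hox genes, 19 fell and 7 rose (median -1.54). All 7 genes that rose had numbers from 1 to 6, and no gene numbered 7 to 13 rose. Of the Hoxd cluster, *Hoxd10* had 188, 147 and 187 in TM6 and 0 in each PKO-1 library (at least 52.9-fold lower), *Hoxd12* had 46.7, 51.6 and 41.9 against 0 (at least 14.2-fold lower), and *Hoxd8* fell from 271, 313 and 294 to 23.8, 13.8 and 20.7 (log2 fold change -3.91, SE 0.14). From the Hoxc cluster, *Hoxc10* had 230.0, 234 and 211 and 1.19, 2.13 and 1.03, and *Hoxc6* rose from 1203, 1060.4 and 1111 to 1656, 1694 and 1885 (log2 fold change 0.63, SE 0.0669). *Hoxa13* had 112, 102 and 124 and 0, 2.13 and 0, whereas *Hoxa10* (means of 2981 and 3912) and *Hoxa11* (means of 1809.9 and 1731) were not called. *Hoxa3* and *Hoxa5*, which share transcribed sequence in the annotation, rose by 1.12 and 0.94 on the log2 scale. PKO-1 differed from PKO-6 in several of these genes. *Hoxd8* and *Hoxd9* were lower in PKO-1 (log2 fold changes -4.47 and -4.15 by the direct test, adjusted p = 1.35e-11 and 1.62e-08), with PKO-6 at 430.0 and 131, and *Hoxb9* had 129, 121 and 113 in PKO-6 but 1.19, 0 and 2.07 in PKO-1.

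**Figure D4:**
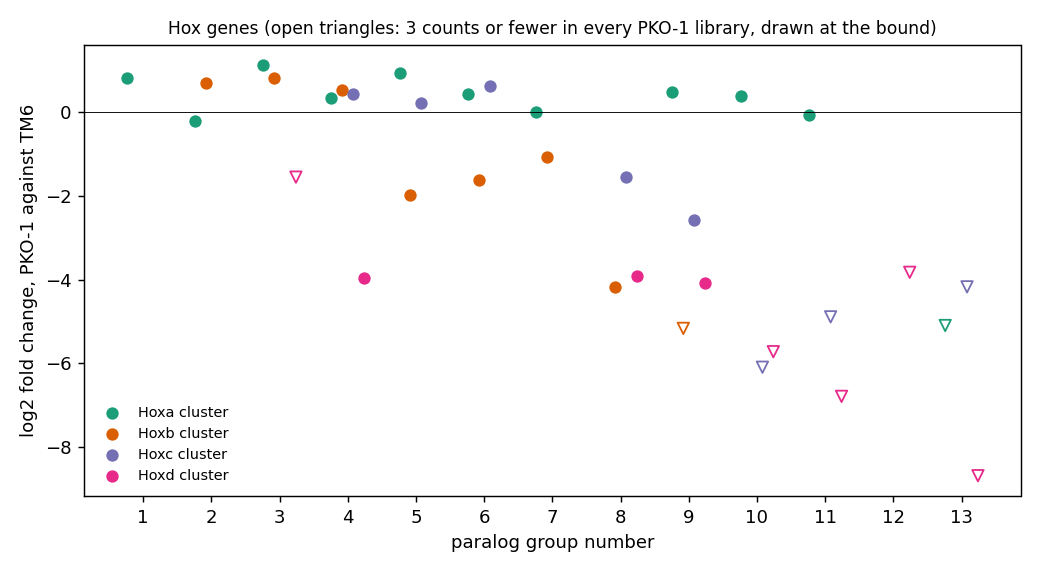
Log2 fold change of PKO-1 against TM6 for the 35 tested Hox genes by paralog number, colored by cluster. Open triangles mark genes with 3 counts or fewer in every PKO-1 library, drawn at the bound for that count, and the genes numbered 12 and 13 are all of this kind.

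Other transcription factors of limb and mesenchyme split evenly, with 12 of 34 higher and 13 lower. *Foxd1* had 638, 623 and 536 in TM6 and 1.19, 0 and 0 in PKO-1, and *Pitx1*, which marks the hindlimb, 514, 489 and 476 and 1.19, 0 and 1.03. *Tbx5*, which marks the forelimb, rose from 1898, 1793 and 1912 to 3187, 3307 and 3212 (log2 fold change 0.79, SE 0.0493), and *Prrx1* from 11947, 13334 and 13061 to 22762, 21044 and 21833 (log2 fold change 0.78, SE 0.0642). *Gata6* rose from 82.1, 89.8 and 72.8 to 518, 569 and 493 (log2 fold change 2.69, SE 0.12), and *Nr2f1* by 1.82 and *Shox2* by 1.03 on the log2 scale. PKO-1 was higher than PKO-6 in 17 of these 34 genes and lower in 6, against 11.5% and 17.6% of all genes.

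Several signalling routes lost ligands, receptors or antagonists. In the Wnt pathway 17 of 30 tested genes fell and 2 rose (median -1.35). The secreted antagonists *Sfrp1*, at 379.6, 369 and 338 in TM6 and 0 in each PKO-1 library (at least 110.1-fold lower), and *Sfrp2*, from 5615, 5699.6 and 5220.1 to 29.8, 26.6 and 24.8 (log2 fold change -7.67, SE 0.19, adjusted p = 1.38e-12), were the main losses. *Ror2*, a *Wnt5a* receptor, fell from 2464, 2363 and 2182 to 563, 575 and 533 (log2 fold change -2.07, SE 0.0853), and the ligand *Wnt5a* and the feedback target *Axin2* had log2 fold changes of -1.69 and -2.35, while the ligand *Wnt9a* rose by 1.49. In TGF-beta and BMP signalling, 14 of 28 fell and 4 rose. *Tgfb2*, a ligand, went from 773, 875 and 835 to 131, 131 and 126 (log2 fold change -2.68, SE 0.11), and *Tgfbr2*, the type II receptor, from 5219.8, 5306 and 5088 to 1540.4, 1495 and 1472 (log2 fold change -1.79, SE 0.0572). *Grem1*, a BMP antagonist, rose from 950.2, 1027 and 887 to 3264, 3236 and 3369 (log2 fold change 1.78, SE 0.0605).

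Of 35 growth factors and receptors, 10 rose and 12 fell. *Pdgfra*, the PDGF receptor alpha of fibroblasts, rose from 319.9, 373 and 333 to 3214, 3295 and 3167 (log2 fold change 3.24, SE 0.0821, adjusted p = 1.38e-12), and *Pdgfrb* fell from 7333, 6968 and 6656 to 2818, 2929 and 3258 (log2 fold change -1.22, SE 0.0698). PKO-6 had 431, 402 and 411 for *Pdgfra* and differed from PKO-1 (log2 fold change 2.96, SE 0.0806, adjusted p = 3.56e-12). *Egfr* dropped from 2717, 2925 and 2831 to 170.2, 193 and 165 (log2 fold change -4.0, SE 0.0917, adjusted p = 6.68e-13) and *Fgfr2* from 1464, 1561 and 1537 to 83.3, 87.3 and 86.9 (log2 fold change -4.14, SE 0.0818). Several of their ligands rose: the EGF receptor ligands *Ereg* and *Areg* by 2.61 and 2.03 on the log2 scale, *Fgf10*, which binds FGFR2, from 1520.0, 1762 and 1767 to 6653, 6397 and 6035 (log2 fold change 1.92, SE 0.0725), and the PDGF ligand *Pdgfc* by 1.60. *Igf1* had 209, 271 and 289 in TM6 and 1.19, 1.06 and 3.10 in PKO-1, and *Igfbp4*, a binding protein of IGF, rose from 240.4, 217 and 210.4 to 5643, 5962 and 6350.1 (log2 fold change 4.75, SE 0.0932, adjusted p = 2.02e-13).

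Axon guidance genes moved in both directions, 12 of 40 higher and 16 lower (median -0.068). The median was -0.131 without TM6 replicate 1 and 0.004 without PKO-1 replicate 3, so its sign rested on 1 library, and it also moved by over 1.5 times without TM6 replicate 2 or 3. *Slit3*, a repellent ligand, rose from 263, 246 and 220.4 to 2749.8, 3015 and 2968 (log2 fold change 3.58, SE 0.093, adjusted p = 1.59e-12), while its receptor *Robo1* fell from 1936, 2082 and 2028 to 787, 785 and 779.8 (log2 fold change -1.36, SE 0.0554). *Ntn1*, netrin 1, fell from 1158, 1096 and 1124 to 148, 131 and 123 (log2 fold change -3.07, SE 0.11) together with its receptors *Unc5b* and *Unc5c* (log2 fold changes -1.17 and -1.45), and *Sema3d* fell from 265, 288 and 316 to 27.4, 43.7 and 29.0 (log2 fold change -3.11, SE 0.26). *Sema3c* and *Sema5a*, also semaphorins, rose by 1.44 and 1.29 on the log2 scale. Of the neuronal genes that the study names, Sema5 is not a single gene symbol and was left out. The other 11 were chosen from these samples, so their count, 5 higher and 6 lower, is not independent evidence. They include *Artn*, a neurotrophic ligand, at 185, 170.1 and 180.5 and 51.2, 42.6 and 61.0 (log2 fold change -1.79, SE 0.21), and *Agrn*, agrin, at 1893, 1744 and 1633 and 3211, 3549 and 3559.8 (log2 fold change 0.97, SE 0.071).

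Imprinted genes are expressed from 1 parental copy, and several differed between the lines. Of 26 tested imprinted genes 6 rose and 7 fell (23.1% and 26.9%, against 16.4% and 17.9% of all genes). *Slc38a4*, an amino acid transporter, went from 3300.3, 3801 and 3793 to 135, 155 and 102 (log2 fold change -4.80, SE 0.16, adjusted p = 1.46e-11) and *Mest* from 266, 247 and 236 to 55.9, 51.1 and 65.2 (log2 fold change -2.12, SE 0.15). *Snrpn* rose from 83.0, 95.5 and 93.7 to 399, 332 and 308 (log2 fold change 1.93, SE 0.16), although its reads cannot be fully separated from Snurf, which it overlaps on the same strand, and PKO-6 had 0.819, 1.04 and 0. The median of the list was 0.12, and it was -0.05 without TM6 replicate 2 and -0.06 without PKO-1 replicate 3, so its sign rested on those libraries. *Xist*, the RNA that coats the silent X chromosome of female cells, had 38495, 29776 and 38340.2 in TM6, 53.6, 16 and 22.8 in PKO-1 and 80185, 55288 and 99686 in PKO-6 (PKO-1 against TM6, log2 fold change -10.21, SE 0.47, adjusted p = 3.48e-10, and against PKO-6, log2 fold change -11.35, SE 0.48, adjusted p = 1.91e-10). Tsix lies on the opposite strand of the same locus. The X genes *Kdm6a* and *Kdm5c*, which escape silencing, fell (log2 fold changes -1.29 and -1.20), and *Kdm5c* was not called once the chromosome's median was subtracted.

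The fold changes were not evenly spread over the chromosomes. Of 459 tested genes on the X chromosome 290 fell and 23 rose (63.2% and 5.01%), with a median log2 fold change of -0.74. On chromosome 12, 254 of 491 rose and 44 fell (51.7% and 8.96%, median 0.56), and on chromosome 18, 147 of 382 rose and 41 fell (median 0.42). Chromosome 9 had 290 of 776 lower and 54 higher (37.4% and 6.96%, median -0.39), chromosome 13 had 155 of 558 lower and 41 higher (median -0.27), and chromosome 15 had 137 of 561 lower and 61 higher (median -0.23). All 3 PKO-1 libraries showed each of these shifts. The TM6 libraries lay near 0 because values were taken against their own mean. They show the spread between cultures and not which line moved. PKO-6 against TM6 had medians of 0.53 for chromosome 12 and -0.87 for X, close to those of PKO-1, but 0.01 for chromosome 9 and 0.08 for chromosome 13, and the PKO-1 libraries lay below PKO-6 on both (medians -0.37 and -0.41). The rho0 libraries, taken singly against the TM6 mean, had medians of 0.511 to 0.554 for chromosome 12 and 0.398 to 0.429 for 18. Their medians were -0.792 to -0.74 for X and -0.407 to -0.343 for 15, but -0.001 to 0.058 for 9 and 0.02 to 0.034 for 13. The shifts of 12, 18, 15 and X were thus not particular to the knockout clones. On chromosome 8 the order was turned, with -0.43 in PKO-6 and -0.11 in PKO-1. When each chromosome's median was subtracted from its genes, 1845 genes were called higher (13.2%) and 2110 lower (15.0%). The adjusted p was not computed anew, so a gene could be called only if it had passed before the subtraction. Part of the drop in calls follows from this. DNA copy number was not measured here, and its part in these shifts was not tested.

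**Figure D5:**
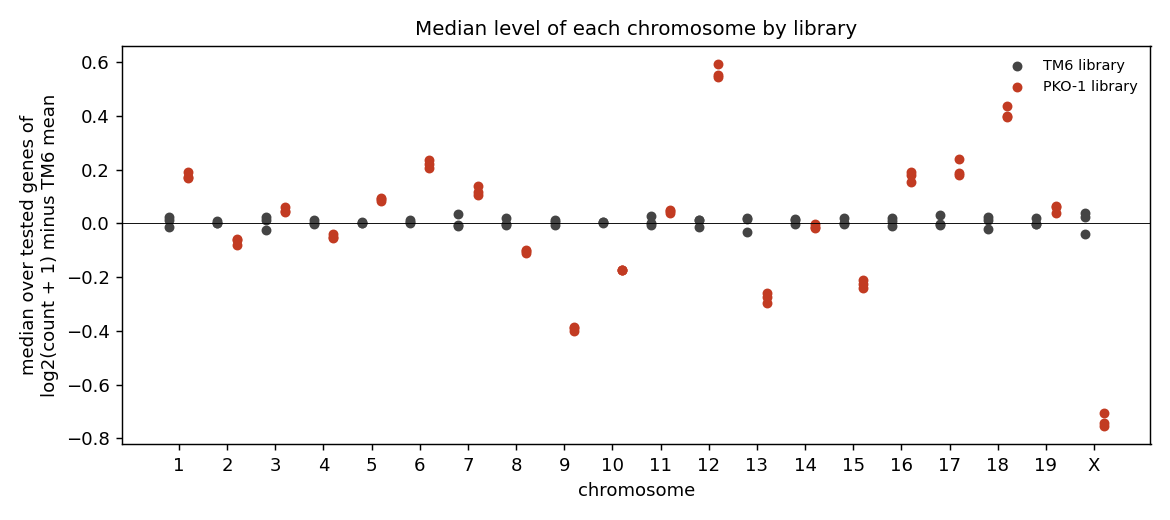
Median over the tested genes of each chromosome of log2(normalized counts + 1) minus the TM6 mean (vertical) for the 3 TM6 libraries (grey) and the 3 PKO-1 libraries (red). The PKO-1 points of chromosomes 12 and 18 lie at 0.397 or above and those of X at -0.707 or below, while the TM6 points lie between -0.039 and 0.039.

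Of 10 markers of fibroblasts, 8 had enough counts to be tested, and 1 of the 10 had means under 10 in both lines. Of those tested, *Lum* and *Dcn* were low in TM6. *Col1a2* and *Vim* were not called, with means of 113811 and 108694 for *Col1a2* and 125328 and 119229 for *Vim*. Of 8 tested fibroblast markers, 3 rose (*Pdgfra*, *Lum* and *Dcn*) and 2 fell (*Pdgfrb* and *Col1a1*), and PKO-1 exceeded PKO-6 in 7 of the 8, against 11.5% of all genes. Of the markers of other cell types, those with means under 10 in both lines were 6 of 7 for blood and macrophages, 4 of 6 for endothelium, 5 of 7 for skeletal myoblasts, 4 of 6 for adipocytes, 5 of 8 for epithelium, 5 of 8 for cartilage and bone and 3 of 8 for nerve and glia. *Ptprc* (blood), *Cdh5* (endothelium), *Myod1* (myoblast) and *Sox10* (glia) were among them, with means of 1.06, 5.19, 0 and 1.49 in PKO-1. The summed level of the myoblast list was 384 to 418 in TM6 and 514 to 526 in PKO-1, most of it from *Pax3*, which was not called (means of 389 and 469.8), and *Des*, desmin of muscle, rose from means of 9.82 to 50.0 (log2 fold change 2.35, SE 0.31). *Kdr*, a VEGF receptor of endothelium, fell from means of 55.2 to 22.2 (log2 fold change -1.32, SE 0.27), and *Fabp4*, a fatty acid carrier of adipocytes, from 67.7 to 11.9 (log2 fold change -2.48, SE 0.28). The part of these markers in the other results was not tested. Of the other lists, *Krt18*, a keratin of simple epithelia, rose from 232, 246 and 247 to 811, 833 and 806 (log2 fold change 1.76, SE 0.10), and *Tubb3*, a neuronal tubulin, rose from 166, 159.5 and 163 to 523, 531 and 501 (log2 fold change 1.67, SE 0.13). Of the same neural list, *Sox2*, a transcription factor of neural progenitors, fell (log2 fold change -1.46), *Nes*, an intermediate filament, fell and *Map2*, a microtubule protein, rose (log2 fold changes -0.76 and 0.65), *Map2* not being called with chromosome medians subtracted. The epithelial cadherin *Cdh1* had means of 6.54 and 1.14. *Alpl*, named above, and *Sox9* (log2 fold change -1.31) are markers of bone and cartilage, and of the same list *Sp7* had means of 1.29 and 1.15.

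Of 27 lysosome and autophagy genes, 9 fell and 4 rose (33.3% and 14.8%, against 17.9% and 16.4% of all genes). *Tfeb*, a master regulator of lysosome genes, went from 769.5, 763 and 684 to 249, 273 and 267 (log2 fold change -1.49, SE 0.12), and its relative *Mitf* rose from 319.9, 388 and 369.9 to 1118, 1161 and 1074 (log2 fold change 1.64, SE 0.0814). Of 9 carbonic anhydrases, 4 rose and 2 fell. *Car6*, the secreted form, had 1.73, 3.82 and 1.99 in TM6 and 140.5, 122 and 109 in PKO-1, far below the 2799 of PKO-6 (log2 fold change -4.50, SE 0.11, adjusted p = 1.84e-12), and *Car12* fell from 196, 217 and 221 to 98.8, 98.0 and 98.2 (log2 fold change -1.10, SE 0.0927).

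Tested directly, 4087 genes differed between PKO-1 and PKO-6 (29.1%), 1620 higher in PKO-1 (11.5%) and 2467 lower (17.6%). Both clones were fitted with the same TM6 libraries, so the direct test, which does not use TM6, was taken for every such statement. The genes furthest below PKO-6 among those also called against TM6 were *Xist*, *Sfrp1*, *Rin3*, *Bicc1* and *Mark1*. *Rin3*, a Rab5 exchange factor, had 750.5, 744 and 756 in TM6, 5.95, 5.33 and 5.17 in PKO-1 and 923, 949 and 809 in PKO-6 (log2 fold change -7.32, SE 0.14, adjusted p = 2.41e-13). *Mark1*, a microtubule kinase, had 227, 187 and 199, 3.57, 0 and 1.03 and 174, 219.7 and 202 in the same order. Both were near 0 in PKO-1, while the PKO-6 libraries were at or near the TM6 range. Those furthest above PKO-6 were *Scml2*, *Snrpn*, *Cyba*, *Slc14a1* and *Slit3*. *Scml2*, a Polycomb protein encoded on X, had 219, 244 and 250.3 in TM6, 392, 382 and 379 in PKO-1 and 0.819, 0 and 0 in PKO-6. *Cyba*, a subunit of NADPH oxidase, had 791, 787 and 673, 490.4, 473 and 487 and 1.64, 1.04 and 0. PKO-6 was the line near 0 here, and PKO-1 differed from TM6 by log2 fold changes of 0.69 and -0.63. For *Slit3*, PKO-6 had 19.7, 15.5 and 15.5 (log2 fold change 7.4, SE 0.13, adjusted p = 1.21e-13), so the clones lay on either side of TM6.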

How the data were processed

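RNA of TM6, PKO-1, PKO-6 and rho0 MEFs (3 biological replicates each) was sequenced from rRNA-depleted, stranded, paired-end libraries. The deposited values are RSEM expected counts per RefSeq gene of mm10 (GRCm38), estimated by the authors with RSEM 1.2.25 on bowtie2 alignments according to the submitters' processing notes, and 12.5% of them were not whole numbers. The deposited per-library tables also hold TPM, which were not used for tests, and isoform percent per transcript, from which the share of Pkm M1 was read.

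Counts were rounded to whole numbers and scaled by TMM. edgeR's filterByExpr, set to at least 10 counts, left 14026 genes, and 3835 of the 17854 genes with a count in TM6 or PKO-1 were not tested. The 12 libraries were fitted together in edgeR 4.0.16 (R 4.3.3) with the quasi-likelihood test and 8 residual degrees of freedom, and PKO-1 was contrasted with TM6 and with PKO-6. P-values were adjusted by Benjamini-Hochberg over all tested genes. An adjusted p below 0.01 with an absolute log2 fold change above 0.5 made a call. The fit was checked on simulated counts. Totals of 47164860 to 66533418 counts per library set the precision, and limits from a count of 0 cover counting error only.

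Gene lists and the rule for named genes were chosen with earlier results of these data known. Named were the target and, per direction, the 10 called genes with the largest fold change and the 5 with the largest difference in counts. These had a mean of at least 100 over the 6 libraries. Up to 3 called members per list with a mean of at least 100, and 5 genes per direction against PKO-6, were also named. Other genes in the text were chosen from the lists after their values were seen. Whether the counting used strand is not given in the sources used here, so reads of genes that overlap another on the opposite strand (among them *Hmga2*, *Xist*, *Tfb1m*, *Slirp*, *Atf5*, *Ddit3*, *Primpol*, *Cxcl10*, *Tagln* and *Uckl1*) cannot be told apart from those of their partner. Replicates were separate cultures of 1 line, so p-values measure the spread between cultures. RNA was extracted with TriZol or RNeasy, and which was used for which library is not given in the sources used here. Replicates of a line differed by more than sampling noise, with a chi-square per degree of freedom of 11.6 or more. Alternatives were DESeq2 1.42.0, its size factors, no filter, other thresholds, 2 lines only, Rn45s left out, chromosome medians subtracted, a replicate block and each library left out.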

Additional observations from a re-analysis of the deposited data

Results flagged for a closer look

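The genes below were listed because PKO-1 and PKO-6, each set against the same TM6 libraries, differed in the direct test between the clones. *Xist*, *Sfrp1*, *Rin3*, *Bicc1*, *Mark1*, *Scml2*, *Snrpn*, *Cyba*, *Slc14a1* and *Slit3* had been picked for their difference between the clones. Their place here was fixed by that choice and is not a result. Groups of 3 libraries are too small for a test of single outlying samples, and none was made. As log2 fold changes of PKO-1 against PKO-6, *Slc14a1* differed by 8.24, *Slit3* by 7.4, *Rhox5* by 5.57, *Alpl* by 3.78, *Slitrk5* by 3.75, *Pkhd1l1* by 3.54, *1700012B09Rik* by 2.22, *Spp1* by 1.42, *Col1a1* by 1.35, *Car8* by 0.89, *Scd2* by 0.70 and *Actg1* by 0.52, all higher in PKO-1. The reverse was seen for *Xist* (-11.35), *Rin3* (-7.32), *Ostn* (-2.58), *P2rx3* (-1.94), *Pnpt1* (-0.65) and *Rpph1* (-0.60).

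Where a clone held 3 counts or fewer in every library, the PKO-6 level is given instead. PKO-6 means were 198 normalized counts for *Mark1*, 44.8 for *Sfrp1*, 18.9 for *Bicc1* and 3.62 for *Slc5a7*, which were at or near 0 in PKO-1. They were 0.891 for *Cyba*, 0.618 for *Snrpn* and 0.273 for *Scml2*, against PKO-1 means of 483, 346 and 384.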

How the results depend on the processing

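Against 4810 calls, 2274 were made with an absolute log2 fold change above 1 (927 higher, 1347 lower), 7611 with no fold threshold (3857 higher) and 3051 with a test against 0.5 (1350 higher). Leaving out 1 library gave 4597 to 4759 calls (2048 to 2267 higher, 2446 to 2549 lower) and 3820 to 4178 between PKO-1 and PKO-6, and *Pnpt1* then moved between -1.43 and -1.29. With DESeq2's test 4722 genes were called, 4597 of them shared. With a replicate block 4761 were called, 4734 of them shared, although deviations of same-numbered TM6 and PKO-1 replicates correlated at -0.22, 0.24 and 0.044, so the samples share only a number. Subtracting chromosome medians from the fold changes, with the adjusted p left as it was, gave 3955 calls, 3666 of them shared, and turned *Hsp90aa1* to -0.028. The other genes named for their fold change or count difference kept their direction under all alternatives run, and 16 further values, 5 of them of *Hsp90aa1*, no longer passed the threshold. The cause of these shifts was not tested. PKO-1 is 1 clone, mtDNA transcripts were not analysed, and a gene at 0 is only below 3 counts per library.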
